A study of Mus musculus with 2 samples.

Results

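The cells described here are natural killer (NK) cells of the mouse spleen that held transcripts of Itgam but none of Cd27, Klrg1 or Cx3cr1. They were chosen by these transcripts alone. Kept barcodes had 500 or more genes and no more than 10% of their transcripts from mitochondrial genes. An NK cell had a unique molecular identifier (UMI, a count of 1 captured transcript) of Ncr1 or Klrb1c, none of Cd3e, Cd79a, Ms4a1 or Csf1r, and at most 1 of Tmem176a plus Tmem176b. Of 9470 such NK cells, among 11989 barcodes in all, 1381 had at least 1 UMI of Itgam and 0 of Cd27, Klrg1 and Cx3cr1. They are called Itgam-only cells below, and all of them entered the sums. Their number was 516 of 4894 NK cells in the control library and 865 of 4576 in the library from dietary restriction (DR).

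NK cells are innate lymphocytes that kill infected or transformed cells with perforin and granzymes and secrete cytokines. In the mouse they mature from cells with the TNF receptor family member CD27, through cells with both CD27 and the integrin chain CD11b, to cells with CD11b alone, and the last of these gain the inhibitory lectin receptor KLRG1 and the fractalkine receptor CX3CR1. Itgam encodes CD11b, so the Itgam-only cells carry the transcript of the late integrin without those of the early receptor and of both late receptors. A transcript can be present in a cell and still give no UMI, so the gate is one of detection.

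The study set spleen NK cells of control mice beside those of mice under dietary restriction, as 1 library of sorted cells each. The labels name the tissue, the cell type and the treatment, and give no strain, genotype, age, sex, number of mice, pooling, sorting gate, or length and degree of the restriction. With 1 library per group there was no replicate and no test, and no value below carries a p-value. The DR library differs from the control library in animals, handling and depth as well as in diet, and these cannot be told apart.

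The libraries held 5702 and 6287 barcodes with 44526828 and 42134212 UMIs in control and DR, and medians of 7151.5 and 5782 UMIs per barcode. The Itgam-only cells gave 3354307 UMIs in control and 4523072 in DR, with medians of 6397.5 and 4985 UMIs and 2448.5 and 2009 genes per cell. Their median mitochondrial share was 1.55% in control and 2.35% in DR. No barcode sequence of a control Itgam-only cell was also in the DR library, and 3 of the 865 DR cells had a barcode that was also in the control library, among 13 barcodes in both. Levels are given as CPM, the UMIs of a gene per 1e+06 UMIs of the same cells, and ratios are log2 ratios of CPM. Intervals are exact and at 95%. They treat UMIs and cells as independent and cover counting error only.

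Itgam-only cells made up 10.5% of control NK cells (95% interval 9.70 to 11.4) and 18.9% of DR NK cells (17.8 to 20.1). The cells that share their integrin but hold Klrg1 or Cx3cr1, called Klrg1/Cx3cr1-positive below, went the other way, from 1778 cells (36.3%) in control to 696 cells (15.2%) in DR. Among all Cd27-negative Itgam-positive cells, the Itgam-only cells were thus 22.5% in control (20.8 to 24.3) and 55.4% in DR (52.9 to 57.9). Both shares were set by the rule and are a description. Depth moved them. With every cell thinned to 3000 UMIs before gating, which left out 366 control and 302 DR cells, the shares of NK cells were 15.4% and 19.6%, and those of the Cd27-negative Itgam-positive cells were 37.8% and 66.4%. The Itgam-only gate then held 736 control and 901 DR cells. It took in cells whose UMIs of Cd27, Klrg1 or Cx3cr1 were lost to thinning, here and wherever 3000 UMIs are named below. Among NK cells of at least 8000 UMIs, a choice made after the data were seen, 119 of 1847 in control (6.44%, 5.37 to 7.66) and 62 of 895 in DR (6.93%, 5.35 to 8.79) were Itgam-only, and these intervals overlap. Depth differed by gate, with control medians of 6397.5 UMIs in Itgam-only and 8736 in Cd27-positive Itgam-positive cells. The cut at 8000 UMIs therefore also changes the mix of gates. Within the Cd27-negative Itgam-positive cells of that depth the shares were 20% (16.9 to 23.4) and 47.7% (38.9 to 56.6). The gap within the Cd27-negative Itgam-positive cells was thus seen at each depth. That in the share of NK cells lay within counting error in the deepest cells. Cx3cr1 and Klrg1 were themselves lower in DR in each gate that does not exclude them. In Cd27-positive Itgam-positive cells, Cx3cr1 was at 81.1 (control) and 11.5 (DR) CPM and Klrg1 at 172 and 79.9 CPM. In Cd27-negative Itgam-negative cells, Cx3cr1 was at 81.3 and 26.5 CPM and Klrg1 at 184 and 121 CPM. The part of this in the shares was not tested.

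**Figure D1:**
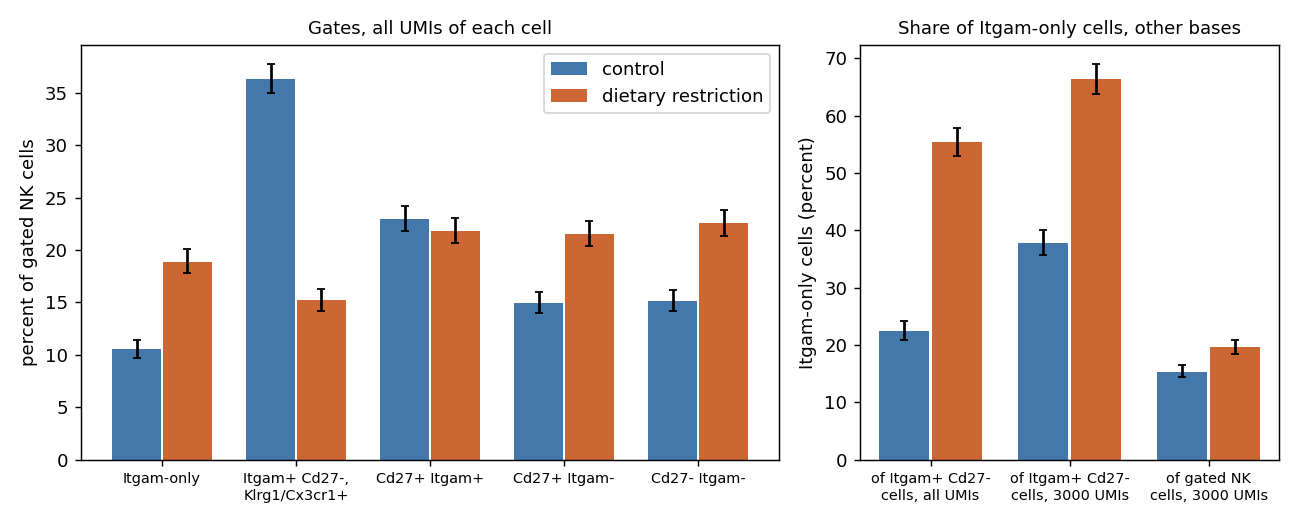
Left, percent of gated NK cells in each of 5 gates, and right, Itgam-only cells as a percent of other bases and at a common depth of 3000 UMIs per cell, in the control (blue) and DR (orange) library; error bars are exact 95% intervals of counting error. The Itgam-only share was 10.5% in control and 18.9% in DR, and 15.4% and 19.6% at the common depth.

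Many cells lay close to the limits of the gate. Of the Itgam-only cells, 206 of 516 in control and 457 of 865 in DR were inside by a single Itgam UMI, 164 and 241 had 2, and 146 and 167 had 3 or more. Just outside, 315 of the 1778 control and 277 of the 696 DR Klrg1/Cx3cr1-positive cells held a single UMI of Klrg1 plus Cx3cr1. Of cells that had Cd27 and Itgam but lacked Klrg1 and Cx3cr1, 221 of 480 in control and 362 of 694 in DR held a single Cd27 UMI. Asking for 2 UMIs of Itgam gave shares of NK cells of 8.17% in control and 12.2% in DR. The level of Itgam itself was 336 (control) and 342 (DR) CPM in the Itgam-only cells, and 383 and 369 CPM in the Klrg1/Cx3cr1-positive cells. Every cell of both gates had to hold an Itgam UMI, so these levels are set in part by the rule.

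The genes that set the gate lie on several chromosomes of the GRCm38 build, as the GENCODE annotation places these protein-coding genes. Itgam is at chr7:128062640-128118491, Cd27 at chr6:125232622-125237010, Klrg1 at chr6:122270596-122282882 and Cx3cr1 at chr9:119901616-120069879. The working name of the group also rests on 4 genes outside the rule. These are Ly6c2 at chr15:75108158-75111970, a GPI-anchored surface protein of mature lymphocytes and monocytes, and Cma1 at chr14:55941451-55944675, which encodes a chymase. The others are Khdc1a at chr1:21349641-21352200, a KH-domain gene, and Klrb1b at chr6:128813706-128826331, the inhibitory receptor NKR-P1B.

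These 4 genes did not set the Itgam-only cells apart from their neighbours. Ly6c2 was at 517 CPM in control Itgam-only cells, against 925 in Klrg1/Cx3cr1-positive, 349.8 in Cd27-positive Itgam-positive and 174 in Cd27-positive Itgam-negative cells. In DR the same gates held 833, 1431, 464 and 252 CPM. Its order across these 4 gates was the same in both libraries, with the Itgam-only cells next to the highest. Cma1 followed the same order, at 306, 564, 265 and 79.1 CPM in control and 357, 492, 206 and 98.9 CPM in DR. NK cells without UMIs of Cd27 and Itgam held 654 and 896 CPM of Ly6c2 in control and DR, above the Itgam-only cells in both.

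Khdc1a was at 61.7 (control) and 137 (DR) CPM in the Itgam-only cells, and the Cd27-positive Itgam-positive cells held 81.5 and 144 CPM. The latter were higher in control, and in DR the intervals overlapped. Klrb1b was lowest in the Itgam-only cells of the control library, at 58.4 CPM against 76.4 to 133 CPM in the other gates. In the DR library it stood at 175 CPM, between the 146 CPM of Cd27-positive Itgam-positive cells and the 201 CPM of Klrg1/Cx3cr1-positive cells. The working name therefore describes the cells by rule only, since none of its 4 other genes was highest in them in both libraries.

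A UMI of Ly6c2 was seen in 43.8% of the 516 control and 56.5% of the 865 DR Itgam-only cells, and one of Cma1 in 67.8% and 69.0%. For Khdc1a the shares were 21.1% and 35.6%, and for Klrb1b 19.0% and 40.9%. B cells of the same libraries, at medians of 8417 and 6631 UMIs per cell, served as a reference for free RNA. Their shares were 9.09% and 7.12% for Ly6c2, 3.41% and 1.78% for Cma1, 0% and 0.254% for Khdc1a, and 1.14% and 2.54% for Klrb1b, over 88 control and 393 DR cells. In cells gated as Itgam-only after thinning to 3000 UMIs the shares were 40.2% and 51.7% for Ly6c2, 48.9% and 55.6% for Cma1, 15.1% and 25.6% for Khdc1a, and 16.3% and 31.7% for Klrb1b. All 4 genes together were seen in 8 control and 44 DR cells, and none of them in 79 control and 55 DR cells.

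**Figure D2:**
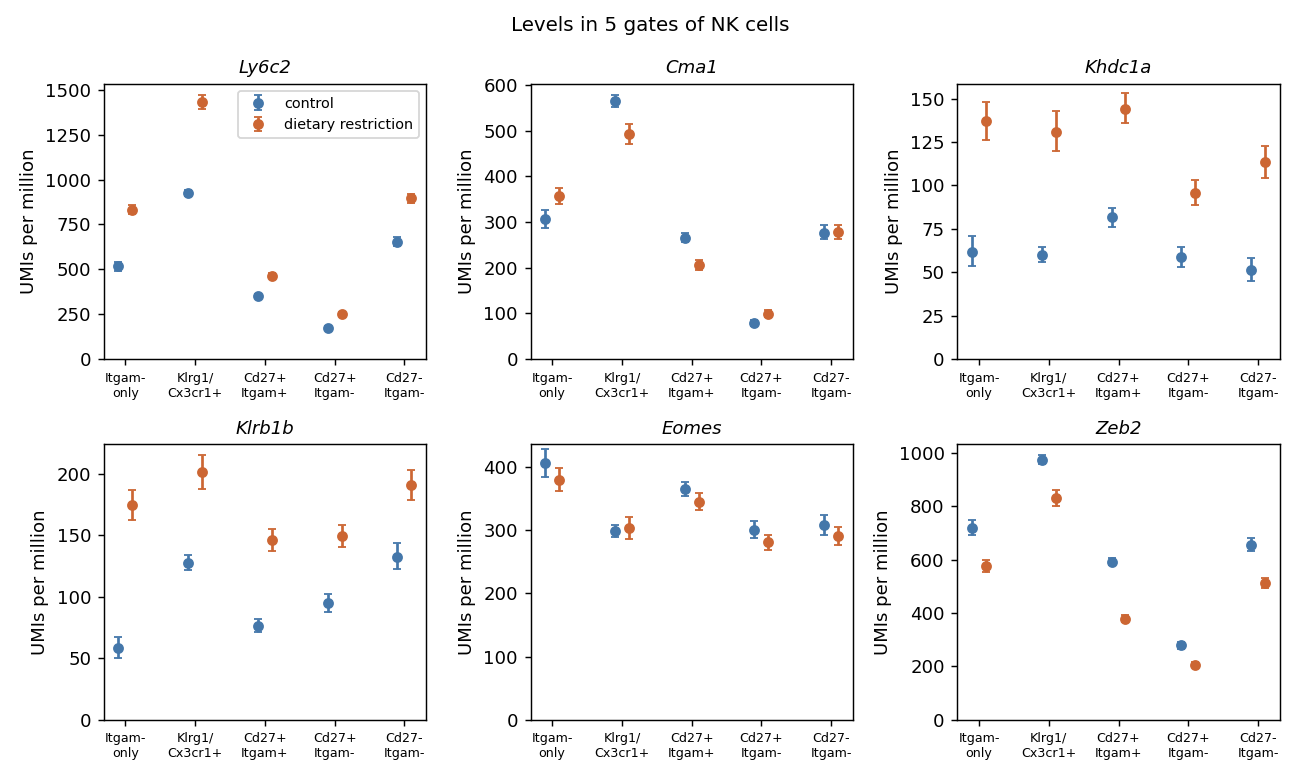
CPM of 6 genes (linear axes from 0) in 5 gates of NK cells in the control (blue) and DR (orange) library; error bars are exact 95% intervals of counting error. Ly6c2 and Cma1 were lower in the Itgam-only cells than in the Klrg1/Cx3cr1-positive cells of both libraries, while Eomes was highest in the Itgam-only cells, at 406 and 380.1 CPM.

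Eomes, a T-box transcription factor of NK cells at chr9:118478212-118486132, had its highest level in the Itgam-only cells in both libraries. It was at 406 CPM in control, against 298, 365 and 301 CPM in Klrg1/Cx3cr1-positive, Cd27-positive Itgam-positive and Cd27-positive Itgam-negative cells. The DR levels were 380.1 against 303, 345 and 281 CPM. Over the Klrg1/Cx3cr1-positive cells the log2 ratio was 0.45 (0.36 to 0.53) in control and 0.33 (0.22 to 0.44) in DR. The DR value lies just past the fold limit, and it fell short of it, at 0.30, with cells thinned to 3000 UMIs. Over the Cd27-positive Itgam-positive cells the ratios of 0.15 and 0.14 were inside the fold limit.

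A gene was called when it averaged at least 20 CPM over the groups compared, its level was at least 25% higher or 20% lower than in the group it was compared with and its interval left out a ratio of 1. Between gates this had to hold the same way in both libraries. The comparisons of the Itgam-only cells with 3 other gates share the Itgam-only cells, and each is given for its own values. Genes used by the rule were left out of them.

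Against the Klrg1/Cx3cr1-positive cells, the Itgam-only cells held more transcripts of early NK genes and fewer of late ones. Of 5884 genes tested, 55 were called higher (0.935%) and 46 lower (0.782%). Of the fixed immature NK list of 14 genes, 1 was used by the rule and 11 were tested, of which 7 were called higher and 0 lower, with a median log2 ratio of 1.10, against medians over all tested genes of 0.0016 in control and 0.0077 in DR. Of the terminal NK list of 14 genes, 3 were used by the rule and 10 were tested, of which 0 were called higher and 7 lower, with a median of -0.41. Both lists were drawn up with earlier results of these data known, and their counts are a description.

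Emb, which encodes the adhesion protein embigin, led the higher genes. It was at 39.1 CPM in Itgam-only and 8.11 CPM in Klrg1/Cx3cr1-positive cells of the control library, and at 57.3 and 24.1 CPM in DR, log2 ratios of 2.27 (1.89 to 2.65) and 1.248 (0.90 to 1.60). Among cells of at least 8000 UMIs the DR ratio was 0.38 and was no longer called. Ctla2a, a cathepsin inhibitor, was at 346 against 139.7 CPM in control and 568 against 305 CPM in DR. Tcf7, the transcription factor TCF1 of early lymphocytes, was at 42.6 against 15.2 CPM in control and 44.0 against 20.01 CPM in DR. In all of these the Itgam-only level was the higher in both libraries.

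Receptors and ligands of early NK cells showed the same side. The chemokine receptor Cxcr3 had log2 ratios of 1.77 in control and 1.14 in DR, and the monocyte-chemokine receptor Ccr2 of 1.22 in control and 0.83 in DR, at 318 and 308 CPM in the Itgam-only cells. Ltb, which encodes lymphotoxin beta, had ratios of 2.25 in control and 1.06 in DR. Xcl1, a chemokine for cross-presenting dendritic cells, was at 282 against 78.7 CPM in control and at 154 against 82.1 CPM in DR, log2 ratios of 1.84 in control and 0.91 in DR. A single control cell held 25.8% of the Xcl1 UMIs of the control Itgam-only cells. The other ranked higher genes were the cytokine signalling inhibitor Socs1, the transcription factor Mef2c, the serine protease inhibitor Serpina3g and Cmtm7, with smaller ratios of 0.62 to 0.90.

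The lower genes held late NK and effector transcripts. Ly6c2 had log2 ratios of -0.84 in control and -0.78 in DR, Cma1 of -0.88 in control and -0.46 in DR, and the granzyme gene Gzmb of -0.69 in control and -0.44 in DR. Zeb2, a transcriptional repressor that terminal NK maturation requires, was at 719 against 975 CPM in control and 575 against 831 CPM in DR, ratios of -0.44 in control and -0.53 in DR. S100a4, a calcium-binding protein, had ratios of -1.04 in control and -0.95 in DR, the metalloproteinase inhibitor Timp2 of -0.98 in control and -1.02 in DR, the kinase gene Sgk1 of -0.81 in control and -0.89 in DR, the endoplasmic peroxidase Gpx8 of -2.04 in control and -1.09 in DR and the Ly49 receptor gene Klra9 of -0.81 in control and -0.57 in DR. For each of these the Itgam-only cells were the lower in both libraries. Klra genes, Ly6c2, Khdc1a, Ctla2a, Bcl2a1b and the histone genes have near-identical relatives between which counting can split reads, so their values are uncertain.

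Of 14 cell cycle genes 7 were tested against the Klrg1/Cx3cr1-positive cells, of which 3 were called lower and 4 were not called. The histone genes Hist1h1b, Hist1h2ap and Hist1h2ae had ratios of -1.35 in control and -2.08 in DR, -1.43 in control and -1.10 in DR and -1.70 in control and -1.05 in DR. A single control Itgam-only cell held 69.4% of the Hist1h1b, 38.7% of the Hist1h2ap and 59.4% of the Hist1h2ae UMIs of its group. Without cells over 2 times the median depth, the control ratios turned to 1.42 for Hist1h1b, 0.31 for Hist1h2ap and 0.60 for Hist1h2ae. Stmn1, which encodes the tubulin-binding protein stathmin, had ratios of -0.95 in control and -0.79 in DR. At full depth, a UMI of the proliferation gene Mki67 was seen in 8 of 516 control Itgam-only cells (1.55%, 0.67 to 3.03). It was seen in 60 of 1778 control Klrg1/Cx3cr1-positive cells (3.37%, 2.58 to 4.32). With cells gated again at 3000 UMIs, the counts were 20 of 736 (2.72%, 1.67 to 4.17) and 23 of 1209 (1.90%, 1.21 to 2.84). The order was thus reversed, and the intervals overlap at both depths. The 736 cells include some outside the rule.

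**Figure D3:**
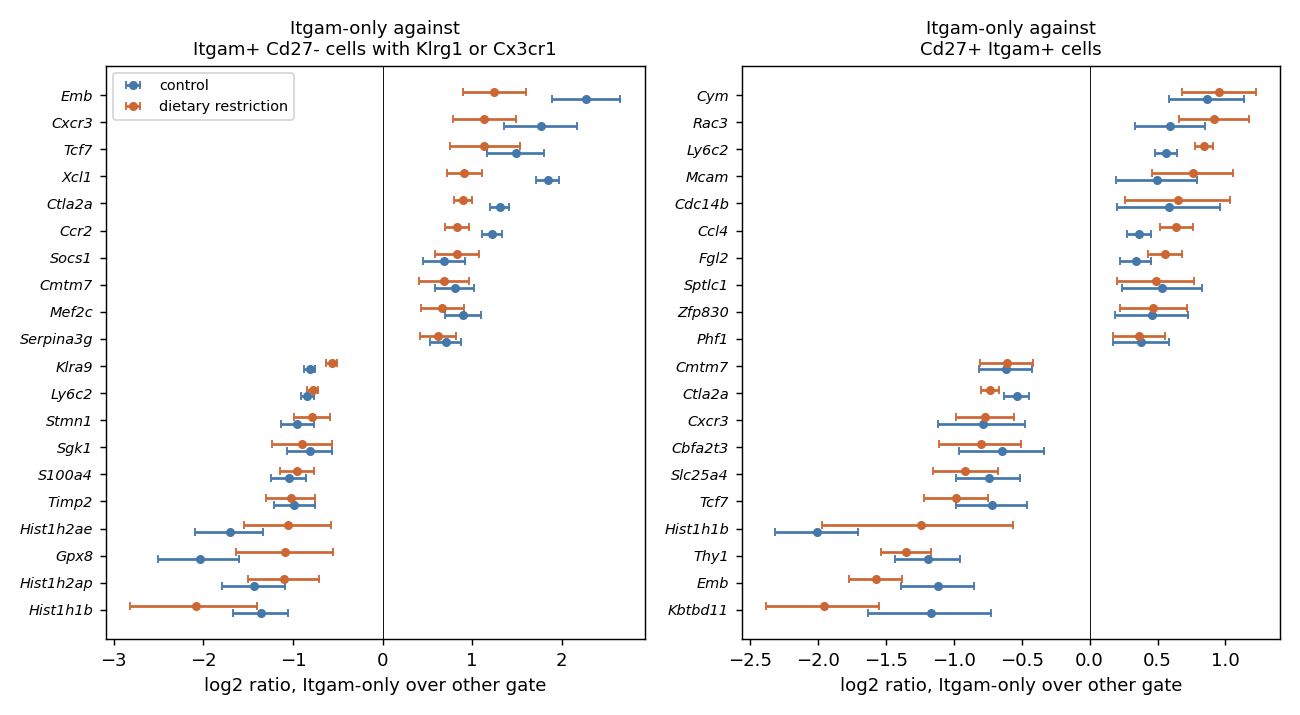
Log2 ratios of CPM in Itgam-only cells over Klrg1/Cx3cr1-positive cells (left) and over Cd27-positive Itgam-positive cells (right) for the ranked genes, in control (blue) and DR (orange), with exact 95% intervals of counting error; the vertical line marks a ratio of 1. Emb, Cxcr3, Tcf7 and Ctla2a lie right of the line on the left and left of the line on the right, in both libraries.

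Against the Cd27-positive Itgam-positive cells the early genes stood on the other side. Of 5841 genes, 48 were called higher (0.822%) and 46 lower (0.788%). Of 13 tested genes of the immature NK list, 0 were called higher and 10 lower. Of 10 tested genes of the terminal NK list, 2 were called higher, Ly6c2 and the transcriptional repressor gene Prdm1, and 0 lower. Scaling by the median ratio, which centres the genes at a ratio of 1, gave 19 higher and 80 lower, so the even split depends on the scaling. With every cell thinned to 3000 UMIs, 7 were called higher and 10 lower, where the median depths without thinning were 6397.5 UMIs in Itgam-only and 8736 in Cd27-positive Itgam-positive cells of control, and 4985 and 6679 in DR.

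Emb was at 39.1 against 84.7 CPM in control and 57.3 against 170.4 CPM in DR, log2 ratios of -1.12 in control and -1.57 in DR. Thy1, a GPI-anchored surface protein, was at 49.2 against 112 CPM and 66.3 against 169 CPM, and Ctla2a at 346 against 502 CPM and 568 against 945 CPM. The Itgam-only cells thus had a level between the Klrg1/Cx3cr1-positive and the Cd27-positive Itgam-positive cells for Emb, Ctla2a, Tcf7 and Cxcr3 in both libraries. Further lower genes were the Kelch-repeat gene Kbtbd11 (-1.16 in control and -1.96 in DR), the mitochondrial carrier Slc25a4 (-0.74 in control and -0.91 in DR), the corepressor Cbfa2t3 (-0.64 in control and -0.80 in DR) and Cmtm7 (-0.62 in control and -0.61 in DR). Hist1h1b had -2.00 in control and -1.24 in DR, and its control ratio turned to 1.40 without cells over 2 times the median depth. At 3000 UMIs per cell its ratios turned to 3.29 in control and 0.30 in DR. Among cells of at least 8000 UMIs the DR ratios of Cbfa2t3 and Cmtm7 turned to 0.19 and 0.019.

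Higher than in the Cd27-positive Itgam-positive cells were Ly6c2 (0.56 in control and 0.84 in DR), the aspartic protease gene Cym (0.86 in control and 0.95 in DR) and the small GTPase gene Rac3 (0.59 in control and 0.92 in DR). The adhesion molecule Mcam (0.49 in control and 0.76 in DR), the phosphatase Cdc14b (0.59 in control and 0.65 in DR) and the fibrinogen-like Fgl2 (0.34 in control and 0.55 in DR) were also among them. Ccl4, an inflammatory chemokine, had ratios of 0.36 in control and 0.64 in DR, which turned to -0.85 and -0.29 among cells of at least 8000 UMIs, where the control ratios of Ly6c2, Rac3 and Cdc14b turned to -0.53, -0.16 and -0.078 and the DR ratio of Cym to -0.44. Only 119 control and 62 DR Itgam-only cells reach that depth. Sptlc1, Zfp830 and Phf1 completed the ranked genes, with ratios of 0.37 to 0.53.

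Against the Cd27-positive Itgam-negative cells, the earliest stage of the 3, the differences were wider. Of 5868 genes, 524 were called higher (8.93%) and 270 lower (4.6%). With median-ratio scaling 304 were higher and 426 lower, so the balance of directions is not fixed. Of 13 tested immature NK genes 1 was called higher, the transcription factor gene Lef1, and 12 lower. Of 10 tested terminal NK genes 9 were called higher and 0 lower.

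Of 17 cytotoxic effector genes 15 were tested against these cells, of which 9 were called higher, 2 lower and 4 neither. Cma1 was at 306 against 79.1 CPM in control and 357 against 98.9 CPM in DR. Gzma, the granzyme A gene, was at 14423 against 5708 CPM and 14759.9 against 6365 CPM, and Gzmb at 747 against 258 CPM and 721 against 286 CPM. The perforin gene Prf1 had log2 ratios of 1.14 in control and 1.07 in DR. Zeb2 had 1.37 in control and 1.48 in DR, and S1pr5, the sphingosine receptor that lets mature NK cells leave bone marrow and lymph nodes, 1.23 in control and 1.247 in DR. Entpd1, which encodes the ectonucleotidase CD39, had 1.89 in control and 1.86 in DR, Rac3 1.70 in control and 1.98 in DR, Mcam 1.59 in control and 1.54 in DR and the potassium channel gene Kcnj8 1.46 in control and 1.53 in DR. Among cells of at least 8000 UMIs the control ratio of Kcnj8 turned to -0.080.

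On the lower side, Batf3, a bZIP transcription factor, gave 2 UMIs in control and 1 in DR Itgam-only cells, against 48.9 and 48.8 CPM in the Cd27-positive Itgam-negative cells. Dtx1, a regulator of Notch signalling, had log2 ratios of -3.10 in control and -2.83 in DR. Emb had -2.38 in control and -2.10 in DR, the receptor gene Cd160 -2.15 in control and -2.47 in DR and Xcl1 -1.74 in control and -2.18 in DR. Cd7 was at 351 against 1131 CPM in control and 313 against 1154 CPM in DR. Crtam (-1.88 in control and -2.60 in DR), Nrgn (-1.82 in control and -1.71 in DR), Gzmm (-1.91 in control and -2.17 in DR) and Kbtbd11 (-1.89 in control and -2.32 in DR) followed, and all lay below the Cd27-positive Itgam-negative cells in both libraries. Markers of some other cell types were higher in that gate. Those of type 1 innate lymphoid cells, Tmem176a and Tmem176b included, summed to 669 (control) and 723 (DR) CPM there. Ltb gave 442 and 433 CPM of these. The Itgam-only sums were 72.1 and 113 CPM. T cell markers summed to 179 and 186 CPM against 30.1 and 28.3 CPM. Myeloid markers were lower there in control, at 142 against 164 CPM. The part of such cells in these ratios was not tested.

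Cd27-negative Itgam-positive cells were also split by their number of Klrg1 plus Cx3cr1 UMIs, where the Itgam-only cells form the class with 0. The rule used this number, so the order of classes is a description. In control, Ly6c2 was at 517 CPM with 0 UMIs, 685 with 1, 700.3 with 2 and 1027 with 3 or more, over 516, 315, 269 and 1194 cells. In DR it was at 833, 1121, 1504 and 1689.5 CPM over 865, 277, 149 and 270 cells. Zeb2 took 719, 808, 882 and 1033 CPM in control, and 575, 708, 839 and 944 CPM in DR. Both genes had a higher level in each successive class, although intervals overlapped between 1 and 2 UMIs in control for both genes and between 2 and 3 or more in DR for Zeb2. For both genes, the level in cells with a single UMI of Klrg1 or Cx3cr1 was thus between those of the Itgam-only cells and of cells with more. A cell can hold these receptor transcripts without a UMI, and the part of this in the order was not tested.

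Early genes took the opposite order. Emb was at 39.1, 19.0, 13.4 and 4.50 CPM in control and at 57.3, 45.6, 17.6 and 6.91 CPM in DR. Ctla2a was at 346, 213, 167 and 117 CPM in control and at 568, 397, 288 and 226 CPM in DR. In each library the level of both genes was lower in each successive class. Ctla2a had no overlap of intervals between neighbouring classes. For Emb they overlapped between 1 and 2 UMIs in control, and between 0 and 1 and between 2 and 3 or more in DR. Median depth in these classes ran from 6336 to 7022 UMIs in control and from 4958 to 5229 in DR.

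**Figure D4:**
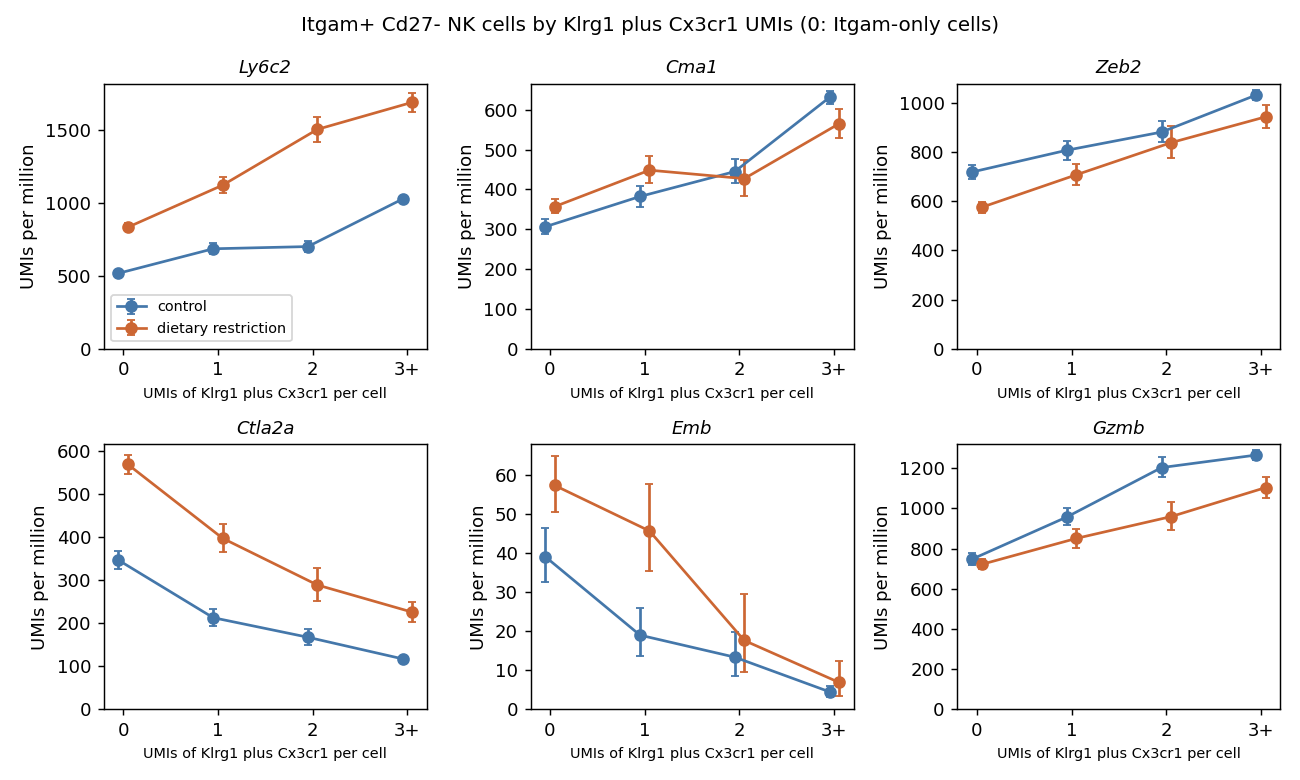
CPM of 6 genes (linear axes from 0) against the number of Klrg1 plus Cx3cr1 UMIs per cell in Cd27-negative Itgam-positive NK cells, with the Itgam-only cells at 0, in control (blue) and DR (orange); error bars are exact 95% intervals of counting error and lines join the classes. Ly6c2 and Zeb2 were lowest and Emb and Ctla2a highest in the Itgam-only cells of both libraries.

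Among cells gated as Itgam-only after thinning to 3000 UMIs, those with a UMI of Ly6c2 differed from those without one. In control the log2 ratio of cells with over cells without Ly6c2 was 0.70 (0.57 to 0.84) for Gzmb, 0.63 (0.41 to 0.84) for Cma1, 0.47 (0.34 to 0.61) for Zeb2 and 0.28 (0.17 to 0.38) for Prf1. In DR the values were 0.36 (0.22 to 0.49), 0.42 (0.24 to 0.60), 0.63 (0.49 to 0.78) and 0.41 (0.30 to 0.51). Emb was lower in the cells with Ly6c2, at -1.60 (-2.48 to -0.80) in control and -1.96 (-2.52 to -1.42) in DR, and so was Ctla2a, at -0.78 and -0.95. Xcl1 went opposite ways, 0.32 (0.06 to 0.57) in control and -1.41 (-1.74 to -1.09) in DR, a difference that was not tested. As given above, a single control cell held a large share of the control Xcl1 UMIs at full depth, which the control interval does not allow for. The sums of this split came from 736 control and 901 DR cells gated after thinning. These are more than the 516 and 865 Itgam-only cells at full depth, so cells of other gates entered. Their part in these ratios was not tested.

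The Itgam-only cells were also split by their number of Itgam UMIs, a number that the rule used and that can rise with depth. The part of depth in the values below was not tested. In control, Ly6c2 was at 407 CPM in the 206 cells with 1 Itgam UMI, 607 in the 164 with 2 and 562 in the 146 with 3 or more. In DR the levels were 851, 790.3 and 847 CPM, with overlapping intervals. Eomes was at 420.3, 395 and 399 CPM in control and at 382, 388 and 364 CPM in DR, again with overlapping intervals. Gzmb was at 643, 821 and 801 CPM in control and at 714, 718 and 740.4 CPM in DR. Xcl1 was lower in each successive class in control, at 477, 216 and 109 CPM with separate intervals, and was at 158, 152 and 148 CPM in DR, with overlapping intervals. As given above, a single control cell held a large share of the control Xcl1 UMIs, which these intervals do not allow for. Ltb was higher in cells with 1 Itgam UMI than in the other classes of both libraries, at 70.6, 26.8 and 29.1 CPM in control and 79.5, 30.8 and 37.8 CPM in DR. Cd7 was at 402, 329 and 312 CPM in control and at 325, 320.5 and 273 CPM in DR, where the intervals overlap.

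Between the libraries, 5877 genes were tested in the Itgam-only cells, of which 270 were called higher in DR (4.59%) and 579 lower (9.85%). The median log2 ratio of all tested genes was -0.05, and scaling by the median ratio gave 396 higher and 403 lower. The excess of lower genes therefore depends on the scaling. The same rule called 272 higher and 580 lower in the Klrg1/Cx3cr1-positive cells of the same libraries, close to the counts in the Itgam-only cells. Ribosomal protein transcripts made up 18.4% of UMIs in control and 19.6% in DR.

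Klrb1b led the genes higher in DR. Its level in Itgam-only cells went from 58.4 CPM (control) to 175 CPM (DR), a log2 ratio of 1.58 (1.35 to 1.81), against 0.65 (0.53 to 0.78) in Klrg1/Cx3cr1-positive cells, where the levels were 128 and 201 CPM. The 2 intervals do not overlap, and the ratio was 1.02 in cells gated as Itgam-only after thinning to 3000 UMIs. The difference between the gates was not tested. Kcnj8 had a like pattern, 67.4 (control) and 120.3 (DR) CPM, a ratio of 0.84 (0.61 to 1.07) against 0.08 (-0.05 to 0.20) in the Klrg1/Cx3cr1-positive cells, and 0.58 after thinning.

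The other ranked genes higher in DR also had ratios above 0 in the Klrg1/Cx3cr1-positive cells. Dhrs3, a retinaldehyde reductase, was at 21.8 (control) and 64.8 (DR) CPM, a ratio of 1.57 (1.20 to 1.96) against 1.31 there. Sla2, an adaptor that restrains receptor signalling, had 1.45 against 1.32, and Khdc1a 1.15 against 1.12. The cold-inducible RNA-binding genes Cirbp and Rbm3 were at 175 (control) and 322 (DR) CPM and at 449.9 (control) and 746 (DR) CPM, ratios of 0.88 and 0.73 against 0.79 and 0.77. Tsc22d3, a glucocorticoid-induced leucine zipper gene, was at 146 (control) and 283 (DR) CPM, a ratio of 0.95 (0.80 to 1.11) against 0.58. Ctla2a had 0.71 against 1.12, and the histone gene Hist3h2ba 1.12 against 0.51.

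Homing receptors divided. Cxcr4, the receptor for the bone marrow chemokine CXCL12, was at 32.8 (control) and 71.6 (DR) CPM (ratio 1.13), and S1pr1, the sphingosine receptor for exit from lymphoid tissue, at 23.0 (control) and 49.7 (DR) CPM (1.12). Cxcr3 was at 28.6 (control) and 54.2 (DR) CPM (0.92) and the hyaluronan receptor gene Cd44 at 74.8 (control) and 116 (DR) CPM (0.64). Among those called lower were S1pr5 at 239.7 (control) and 191 (DR) CPM (-0.33), and the integrin genes Itga4, Itga2 and Itgax, with ratios of -0.51, -0.42 and -0.40. In all, of 22 homing and adhesion genes 19 were tested, 4 were called higher, 5 lower and 10 not called, beside 4.59% higher and 9.85% lower of all tested genes. S1pr5 lies near the fold limit, and it was not called under median-ratio scaling.

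Of 8 Klra genes tested, which encode the Ly49 receptors, 4 were called lower in DR, 0 higher and 4 not called. This count was made after their values were seen, and stands beside 4.59% higher and 9.85% lower of all tested genes. Klra5 was at 31.6 (control) and 9.73 (DR) CPM, a ratio of -1.70 (-2.24 to -1.18), Klra6 at 40.2 (control) and 17.9 (DR) CPM (-1.17), and Klra8, the activating receptor Ly49H, at 987 (control) and 566 (DR) CPM (-0.80, -0.88 to -0.73). The Klrg1/Cx3cr1-positive cells had ratios of -1.35, -1.40 and -0.76 for these genes. Among Itgam-only cells of at least 8000 UMIs the ratio of Klra6 turned to 0.019 and that of Klra5 was -0.71 and no longer called. Klra9 was at 684 (control) and 849 (DR) CPM with a ratio of 0.31 (0.24 to 0.39), just inside the fold limit, and it was called higher with median-ratio scaling. Its ratio was -0.28, not called, among cells of at least 8000 UMIs. Slamf7, an activating receptor of the SLAM family, was at 202 (control) and 105 (DR) CPM (-0.93). Other lower genes were the survival gene Bcl2a1b at 40.8 (control) and 14.1 (DR) CPM (-1.53), the scaffold gene Tanc1 (-1.36), the kinase gene Stk39 (-1.18), the sialic acid hydroxylase gene Cmah (-1.12) and the complement regulator Cd55 (-1.09).

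Of 11 cytokine and chemokine genes 8 were tested. Ltb was called higher in DR and 3 chemokine genes lower, beside 4.59% higher and 9.85% lower of all tested genes. Ccl3 was at 153 (control) and 77.2 (DR) CPM, a ratio of -0.99 (-1.19 to -0.79), and Ccl4 at 416 (control) and 241 (DR) CPM, a ratio of -0.79 (-0.91 to -0.67). The Klrg1/Cx3cr1-positive cells had -0.39 and -0.34. Xcl1 was at 282 (control) and 154 (DR) CPM, a ratio of -0.87 (-1.02 to -0.73) against 0.06 (-0.12 to 0.24) in the Klrg1/Cx3cr1-positive cells. With 2 UMIs of Itgam required, the Xcl1 ratio was -0.12 and was no longer called. As given above, a single control cell held a large share of the control Xcl1 UMIs, and the ratio without that cell was not computed. Ifng, the interferon gamma gene, was at 71.5 (control) and 62.3 (DR) CPM, a ratio of -0.20 (-0.45 to 0.06).

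**Figure D5:**
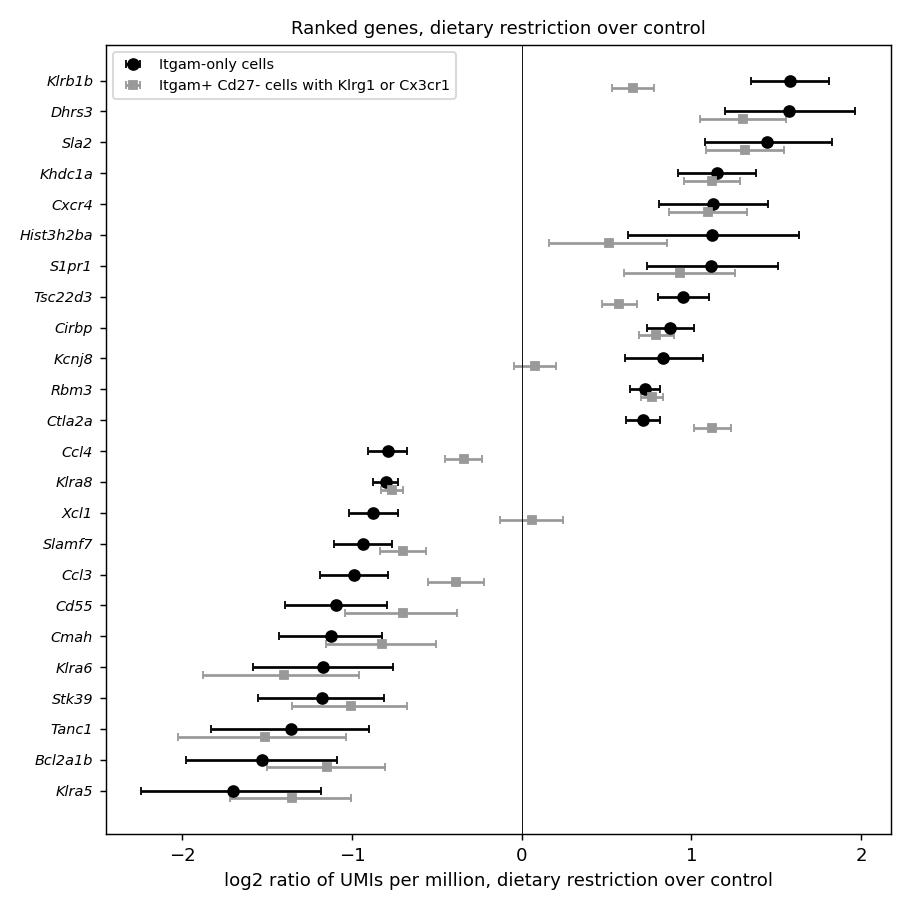
Log2 ratios of CPM, DR over control, for the ranked genes in Itgam-only cells (black circles) and in Klrg1/Cx3cr1-positive cells (grey squares), with exact 95% intervals of counting error; the vertical line marks a ratio of 1. Klrb1b and Kcnj8 lie further right and Xcl1 further left in the Itgam-only cells, at 1.58, 0.84 and -0.87, than in the Klrg1/Cx3cr1-positive cells, at 0.65, 0.08 and 0.06. A single control Itgam-only cell held a large share of the control Xcl1 UMIs.

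Of 17 cytotoxic effector genes 14 were tested between the libraries and 0 were called, with a median log2 ratio of 0.06. With 4.59% of all tested genes called higher and 9.85% lower, a count of 0 among 14 is close to the background. Gzma was at 14423 (control) and 14759.9 (DR) CPM (ratio 0.03, 0.02 to 0.05), Gzmb at 747 (control) and 721 (DR) CPM (-0.05, -0.13 to 0.02), Prf1 at 1263 (control) and 1191 (DR) CPM (-0.09) and Cma1 at 306 (control) and 357 (DR) CPM (0.22, 0.11 to 0.34). Among cells of at least 8000 UMIs Cma1 had a ratio of 0.40 and was called. Of 22 transcription factor genes 19 were tested, and 0 were called higher and 2 lower, again close to the 4.59% and 9.85% of all tested genes. The lower ones were Zeb2 at 719 (control) and 575 (DR) CPM (-0.32, not called with median-ratio scaling) and Bach2 at 41.4 (control) and 29.2 (DR) CPM (-0.51, which turned to 0.082 among cells of at least 8000 UMIs). Eomes had -0.09 and Tbx21, the T-box factor T-bet, -0.01.

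Stage genes did not move as a block. Of 11 tested immature NK genes, 5 were called higher in DR and 3 lower, beside 4.59% higher and 9.85% lower of all tested genes. The median of the 11 was 0.23, against -0.05 over all tested genes. The higher ones were Cxcr3 (0.92), Ctla2a (0.71), Emb (0.55), Thy1 (0.43) and Ltb (0.37), and the lower ones Xcl1 (-0.87), the costimulatory receptor Tnfrsf9 (-0.75) and Cd160 (-0.48). At 3000 UMIs per cell the Cd160 ratio turned to 0.04, and among cells of at least 8000 UMIs the Ltb ratio turned to -0.011. Of 10 tested terminal NK genes, Ly6c2 was called higher at 517 (control) and 833 (DR) CPM (0.69), Zeb2 and S1pr5 lower, and 7 were not called.

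Genes tied to glucocorticoid and FOXO signalling, which respond to fasting in many tissues, went both ways. Of 16, 14 were tested, 5 were called higher, 3 lower and 6 not called, beside 4.59% higher and 9.85% lower of all tested genes. The Klrg1/Cx3cr1-positive cells had 4 higher and 3 lower of 14 tested genes of this list, and 9 higher and 0 lower of 13 mitochondrial genes. In the Itgam-only cells the calls were as follows. Higher were Tsc22d3, Klf9 (0.64), the PI3K inhibitor Pik3ip1 (0.56), the glucocorticoid receptor co-chaperone Fkbp5 (0.47) and Txnip (0.32). Lower were Sgk1 (-0.75), the glucocorticoid receptor gene Nr3c1 at 139.5 (control) and 93.1 (DR) CPM (-0.58) and Sesn3 (-0.58). Of 13 genes of the mitochondrial genome 8 were called higher and 0 lower, led by mt-Co2 at 2436 (control) and 4158 (DR) CPM (0.77), in step with the higher mitochondrial share of the DR cells, and the part of cell quality in this was not tested.

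Of 13 interferon response genes 7 were tested. In DR 0 were called higher and 3 lower, beside 4.59% higher and 9.85% lower of all tested genes. The Klrg1/Cx3cr1-positive cells had 0 higher and 2 lower of 7 tested. Among the lower genes in Itgam-only cells were Isg15 at 35.2 (control) and 17.9 (DR) CPM (-0.97) and Irf9 at 59.6 (control) and 36.0 (DR) CPM (-0.73). A single control cell held 52.5% of the control Isg15 UMIs, and the Isg15 ratio was -0.19, not called, at 3000 UMIs per cell. Il18r1, a chain of the interleukin 18 receptor, was at 216 (control) and 346 (DR) CPM (0.68) and the interleukin 12 receptor chain Il12rb2 at 87.1 (control) and 63.2 (DR) CPM (-0.46). They were the called genes among 10 tested cytokine receptors, beside the same shares of all tested genes.

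The counts in the remaining lists stand beside 4.59% called higher and 9.85% called lower of all tested genes, and with so few genes a list, 1 or 2 calls are near that background. Of 16 activating receptor and adaptor genes 14 were tested, of which 1 was called higher, the adhesion receptor Cd226 (0.52), and 4 lower, Slamf7, Klra8, Klra4 (-0.33) and the signalling chain Cd247 (-0.49). Of 15 inhibitory receptor genes 10 were tested, of which Klrb1b and Ly6c2 were called higher and Klra5 lower. Ly6c2 stands on that list although it is not known as an inhibitory receptor. The NKR-P1 list of 8 genes had 1 used by the rule and 7 tested, with Klrb1b, Klrb1f (0.36) and Clec2i (0.33) called higher and 0 lower. Of 11 survival and death genes 9 were tested, with the death gene Bcl2l11 called higher (0.48) and Bcl2a1b and Bak1 (-0.36) lower. None of the 14 tested energy metabolism genes, 6 immediate early genes and 6 cell cycle genes was called. Of the Ly6 family of 8 genes 2 were tested and both were called higher, Ly6c2 and Ly6e (0.53), and of the Khdc1 family of 3 only Khdc1a was tested. Among cells of at least 8000 UMIs the ratios of Cd226 and Clec2i turned to -0.20 and -0.26.

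Markers of other cell types were counted in the Itgam-only cells. The rule itself kept Cd3e, Cd79a, Ms4a1 and Csf1r at 0 and Tmem176a plus Tmem176b at no more than 1 UMI per cell, and these genes are left out of the counts. Of 7 other T cell markers 4 were detected in each library, with summed levels of 30.1 CPM in control and 28.3 CPM in DR, and Cd4 and Cd6 were at 0 in both. Of 6 other B cell markers 5 were detected in control (136.8 CPM in sum) and 6 in DR (157.4 CPM), most of it Ighm at 112 (control) and 97.7 (DR) CPM. Of 7 other markers of type 1 innate lymphoid cells 6 were detected in each library, at 71.3 and 111 CPM in sum, with Cxcr6 at 0 in both and Ltb at 44.1 (control) and 57.0 (DR) CPM. Of 6 other myeloid markers 3 were detected in control and 5 in DR, at 164 and 277 CPM in sum, most of it Cst3 at 163 (control) and 166 (DR) CPM. Of 7 mast cell and basophil markers 2 were detected in control and 1 in DR, at 30.4 and 6.41 CPM in sum, and of 4 dendritic markers 0 and 1. Erythroid and platelet markers summed to 6.86 CPM in control and 17.9 CPM in DR. A single DR cell held 472 of the 480 UMIs of S100a8 plus S100a9, and a single DR cell held all 43 UMIs of the haemoglobin gene Hbb-bs. Cells with a UMI of Cd3d, Cd3g, Il7r, Cxcr6, Cd79b, Lyz2, S100a8 or Hbb-bs were left out in an alternative chosen after the data were seen, and the shares of NK cells were then 11.5% in control and 21.0% in DR.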

How the data were processed

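Spleen NK cells sorted by flow cytometry were profiled by 10x Genomics 3' single-cell RNA sequencing, with 1 library from control and 1 from dietary restriction mice. The deposited files hold whole-number UMI counts per gene and barcode for 32285 genes, written by Cell Ranger 5.0.1 per the file headers, whereas the submitters' processing notes name Cell Ranger 2.1.1 and the build mm10. Which version made the counts is not known. The deposited counts were not corrected here for free RNA. No doublet caller was run, and an alternative left out cells over 2 times the median UMIs. Of the gene symbols, 78 genes share one with another gene and were kept apart by identifier.

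Counts were summed per gate and library and expressed as CPM with exact Poisson intervals, ratios with exact conditional binomial intervals and shares with exact Clopper-Pearson intervals, all at 95%. A gene with a mean of at least 20 CPM was called when it was at least 25% higher or 20% lower and its interval left out equality, and between gates only if so in both libraries. Thinning drew 3000 UMIs per cell with a fixed seed, and a cell was then gated again. The B cell reference was cells with at least 2 UMIs of Cd79a, a UMI of Ms4a1 and none of Ncr1 or Klrb1c. The calling code was tested on simulated data, in which calls also arose from counting noise alone. The share of unchanged genes that the test allowed to be called was raised after a first run exceeded it. The tools were Python 3.11.15, numpy 2.4.6, pandas 2.3.3, scipy 1.17.1 and matplotlib 3.10.9.

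The cells, the 26 gene lists and the rules were chosen with earlier results of these data known. Named genes were the 12 called genes each way with the largest DR over control ratio, by the interval end nearest 1, and the 10 each way called in both libraries against each of 3 gates. Added were up to 4 genes of each list with the largest absolute DR over control ratio and fixed marker and effector genes. Not ranked were genes of the rule, unnamed models, other cell types' markers and the genes of ribosomal proteins, the mitochondrial genome, T cell receptors, haemoglobins and immunoglobulins; the pattern that recognises T cell receptor genes and unnamed models was extended after 2 such genes had been seen in the ranking. Other list genes that the text names, such as Prdm1, Lef1, Itga4, Itga2, Itgax, Txnip, Pik3ip1, Fkbp5, Sesn3 and Klra4, were named after their values were seen, to spell out a count. Of 9 alternatives, 7 were planned and 2 were added after the data were seen. Surprising differences between libraries were sought among named genes only, a limit set after a first search over all genes. Some genes are not reported here by name, although the counts over lists include them.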

Additional observations from a re-analysis of the deposited data

Results flagged for a closer look

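Stmn1, which encodes stathmin, was flagged because its ratio of Itgam-only over Cd27-positive Itgam-positive cells went opposite ways in the 2 libraries. The log2 ratio was -1.32 (-1.51 to -1.14) in control, at 82.9 against 207 CPM, and 0.35 (0.15 to 0.56) in DR, at 77.6 against 60.7 CPM. The difference between the libraries was not tested, since each group is 1 library. The search covered named genes only.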

How the results depend on the processing

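No paired analysis was possible because each group is 1 library and no result came from a test. With 1 library per group the spread between mice is unknown, and depth limits what a gate by detected UMIs can separate. The DR Itgam-only cells were the shallower. Thinning to 3000 UMIs moved the control share of NK cells to 15.4% and the shares of Cd27-negative Itgam-positive cells to 37.8% in control and 66.4% in DR. It left 7 genes higher and 10 lower than in Cd27-positive Itgam-positive cells, and 185 and 125 against Cd27-positive Itgam-negative cells. Requiring 2 UMIs of Itgam gave shares of NK cells of 8.17% and 12.2%, shares of Cd27-negative Itgam-positive cells of 19.7% and 50.9%, and 36 genes higher and 27 lower than in Klrg1/Cx3cr1-positive cells. Cells of at least 8000 UMIs gave shares of 6.44% and 6.93% of NK cells and of 20% and 47.7% of Cd27-negative Itgam-positive cells, 353 genes lower in DR, 29 higher than in Klrg1/Cx3cr1-positive cells, 7 higher and 10 lower than in Cd27-positive Itgam-positive cells, and 288 and 123 against Cd27-positive Itgam-negative cells; far fewer cells entered. Leaving out cells with markers of other lineages gave shares of NK cells of 11.5% and 21.0%, and 253 higher and 138 lower against Cd27-positive Itgam-negative cells. Leaving out cells over 2 times the median UMIs gave 26 genes higher than in Cd27-positive Itgam-positive cells. Median-ratio scaling gave 19 higher and 80 lower there, and 304 and 426 against Cd27-positive Itgam-negative cells. A minimum of 50 CPM, by which fewer genes are tested, gave 106 higher and 313 lower in DR, 31 and 30 against Klrg1/Cx3cr1-positive, 14 and 22 against Cd27-positive Itgam-positive, and 315 and 149 against Cd27-positive Itgam-negative cells. Except where said, the cause was not tested.

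Of the comparisons of single named genes under all alternatives, 2476 kept their call and direction, 135 lost a call, 54 gained one and 31 reversed. At 3000 UMIs, Hist1h1b over Klrg1/Cx3cr1-positive cells turned to 1.33 in control, and over Cd27-positive Itgam-positive cells to 3.29 in control and 0.30 in DR. Hist1h2ap turned to 0.73 in control, Hist1h2ae to 1.12 in control and 0.057 in DR, Ccl4 over Cd27-positive Itgam-positive cells in DR to -0.18, and Cd160 in DR over control to 0.039. Without cells over 2 times the median UMIs, the control ratios were 1.42 and 1.40 for Hist1h1b over those gates, 0.31 for Hist1h2ap and 0.60 for Hist1h2ae. Among cells of at least 8000 UMIs, the ratios over Cd27-positive Itgam-positive cells turned to -0.85 and -0.29 for Ccl4 in control and DR, -0.53 for Ly6c2, -0.16 for Rac3 and -0.078 for Cdc14b in control, and to 0.019 for Cmtm7, -0.44 for Cym and 0.19 for Cbfa2t3 in DR. Khdc1a over Klrg1/Cx3cr1-positive cells turned to -0.41 and Kcnj8 over Cd27-positive Itgam-negative cells to -0.080, both in control. DR over control turned to 0.019 for Klra6, 0.58 for Stmn1, -0.011 for Ltb, -0.20 for Cd226, -0.26 for Clec2i, 0.082 for Bach2 and 0.40 for Tbx21. Without cells that hold markers of other lineages, Khdc1a over Cd27-positive Itgam-negative cells turned to -0.36 in control and -0.0033 in DR.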
